A study of Homo sapiens with 4 samples.

Results

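Regions marked by H3K27ac in gene deserts, the long stretches of genome without protein-coding genes, were described in triple-negative breast cancer (TNBC) cell lines. A peak was counted as a desert peak if it overlapped no GENCODE protein-coding gene body and lay over 100 kb from every protein-coding transcription start site. The desert peaks of 3 peak lists were merged where they overlapped by at least 1 bp, which gave 5855 desert regions of 50576 merged regions on chromosomes 1 to 22 and X. Among called peaks, the rule used position and not strength, but each region had to be called as a peak in at least 1 of the 3 lists.

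The series holds 4 H3K27ac ChIP-seq libraries, 2 replicates each of MDA-MB-231 and Hs578T, established human TNBC lines with mesenchymal features. Per the labels, all cells were serum-starved for 8 h, treated with TWEAK, the ligand of the receptor Fn14, at 10 ng/ml for 48 h, and then washed free of it; 72 h of washout was entered for every library, although the study's text describes a longer wash-off. Every library thus shares the same treatment, cells that never met TWEAK or were fixed during treatment are outside these data, and no effect of TWEAK was measured. In MDA-MB-231 replicate 1 there were 209 peaks, against 43353 in MDA-MB-231 replicate 2, 46330 in Hs578T replicate 1 and 44920 in Hs578T replicate 2. This small list was left out of the regions, so MDA-MB-231 is represented by 1 list, no test between the lines was possible, and a difference between lines cannot be told apart from a difference between libraries. The promoters of VIM, AXL and CD44, genes of mesenchymal cells, were marked in all 3 large lists and those of the luminal genes ESR1, GATA3, FOXA1 and ESRP1 in none. Of 10 marker genes of immune, endothelial and blood cells, 2, 2 and 1 had a marked promoter, CD68 in every list and PECAM1 in the first 2. Values are given throughout in the order MDA-MB-231 replicate 2, Hs578T replicate 1 and Hs578T replicate 2. Read numbers were not used here, so the depth behind a peak is unknown.

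H3K27ac is a histone mark found at active enhancers and promoters. Enhancers are stretches of DNA bound by transcription factors that raise the transcription of a gene on the same chromosome, and they can act over long distances by looping. Gene deserts often flank genes that encode developmental regulators, hold many long non-coding RNA (lncRNA) genes, and are known to carry long-range enhancers. AP-1, the dimer of JUN and FOS family proteins, is activated downstream of many receptors, Fn14 among them, and binds the sites TGACTCA and TGAGTCA, which are reverse complements of each other.

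The sequences of 5 of the 9 top-ranked desert regions that held an AP-1 site are shown first, each as the stretch around the site nearest the middle of the region, to place the site that recurs in them in its context. A sixth sequence comes from the desert region with the most AP-1 sites, chosen after its value was seen. Coordinates are on hg38, each region is called by its nearest protein-coding gene, and AP-1 sites are in capitals.
STC2 region (chr5:173454474-173454624, plus strand): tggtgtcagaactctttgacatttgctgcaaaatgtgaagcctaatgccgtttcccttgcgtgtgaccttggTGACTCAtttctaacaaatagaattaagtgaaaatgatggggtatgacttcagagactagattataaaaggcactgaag
ARF6 region (chr14:50001636-50001786, plus strand): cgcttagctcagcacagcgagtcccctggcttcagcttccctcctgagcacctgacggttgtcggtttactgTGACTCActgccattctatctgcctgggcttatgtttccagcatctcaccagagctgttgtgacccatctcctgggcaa
JARID2 region (chr6:14743512-14743662, plus strand): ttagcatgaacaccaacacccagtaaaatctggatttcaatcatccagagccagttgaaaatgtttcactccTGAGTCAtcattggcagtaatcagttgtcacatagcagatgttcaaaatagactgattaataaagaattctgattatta
METTL15 region (chr11:28834989-28835139, plus strand): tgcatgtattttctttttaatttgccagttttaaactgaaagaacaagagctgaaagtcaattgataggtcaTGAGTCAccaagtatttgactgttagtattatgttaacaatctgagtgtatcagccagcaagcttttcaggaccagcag
HS3ST3A1 region (chr17:13347588-13347738, plus strand): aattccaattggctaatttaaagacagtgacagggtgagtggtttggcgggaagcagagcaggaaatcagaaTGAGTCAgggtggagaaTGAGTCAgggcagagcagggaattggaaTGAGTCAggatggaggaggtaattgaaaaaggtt
TRIML1 region (chr4:188444891-188445130, plus strand): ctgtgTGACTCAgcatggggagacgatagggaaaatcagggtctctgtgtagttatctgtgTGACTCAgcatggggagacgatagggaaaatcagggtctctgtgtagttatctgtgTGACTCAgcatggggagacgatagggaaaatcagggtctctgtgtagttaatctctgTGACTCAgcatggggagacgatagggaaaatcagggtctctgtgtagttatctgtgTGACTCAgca

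The first window came from the strongest desert region, which lay 121 kb from STC2, a secreted glycoprotein hormone gene, inside the lncRNA gene ENSG00000253968. The ARF6 and HS3ST3A1 windows show different arrangements, with 1 site in the former and 3 sites within 151 bases in the latter. The TRIML1 window is part of a tandem array. Its region held 77 AP-1 sites in 7566 bp, spread over 4.29 kb, and 47 of the 76 distances from the start of a site to the start of the next measured 56 bp. This region, which overlaps the lncRNA gene LINC01060, was called in all 3 lists with fold enrichments of 39.96, 30.0 and 24.1, at percentiles 99.9, 99.3 and 99.1 of its own list. How reads from the repeated copies were placed was not tested.

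Of the desert regions, 9 overlapped miRNA genes, among them the 2 widest desert regions of all. The mature miRNAs of the best-known 3 loci are shown, from RefSeq on GRCh38.p14, with the seed (bases 2 to 8), the part that pairs with targets, in capitals.
hsa-miR-221-3p (chrX:45746180-45746202, minus strand): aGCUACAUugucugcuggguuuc
hsa-miR-222-3p (chrX:45747036-45747056, minus strand): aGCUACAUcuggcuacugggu
hsa-miR-29a-3p (chr7:130876748-130876769, minus strand): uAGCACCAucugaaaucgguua
hsa-miR-29b-3p (chr7:130877467-130877489, minus strand): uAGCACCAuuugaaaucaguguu
hsa-miR-30a-5p (chr6:71403595-71403616, minus strand): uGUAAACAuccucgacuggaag

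MIR221 and MIR222 share the seed GCUACAU, and MIR29A and MIR29B1 share the seed AGCACCA. Both pairs lay inside a continuous desert region, described with the clusters, and MIR30A, a member of another miRNA family with the seed GUAAACA, lay in a desert region of 22083 bp at the start of LINC00472.

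The deserts as defined made up 895 Mb, or 30.7% of the known sequence of these chromosomes. They held 4833, 5233 and 5055 peaks, which were 11.1% (95% Wilson interval 10.86 to 11.45), 11.3% (11.01 to 11.59) and 11.3% (10.96 to 11.55) of all peaks in the list. Density was 5.40, 5.85 and 5.65 peaks per Mb of desert, against 19.1, 20.4 and 19.8 per Mb in all other sequence, so deserts were the sparser part in 3 of 3 lists. The exact two-sided sign-flip permutation test over the 3 lists gave p = 0.25, the smallest p that 3 lists allow. None of the comparisons between desert and other peaks could therefore pass a threshold of 0.05. Since 2 of the 3 lists come from Hs578T, they are not 3 independent units, here and in the other comparisons. Between coding genes but within 100 kb of a start site, density was 13.8, 14.7 and 14.3 peaks per Mb. Peaks overlapping coding gene bodies came to 22.04, 23.5 and 22.8 per Mb of gene body. By the rule, every peak at a coding start site falls outside deserts, so these comparisons hold promoter peaks on the non-desert side only. How the densities compare without promoter peaks was not tested.

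**Figure D1:**
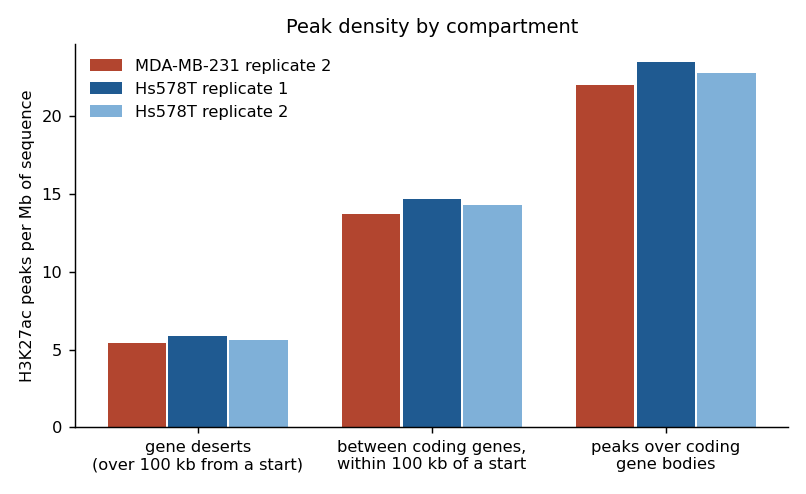
H3K27ac peaks per Mb of sequence (vertical axis, from 0) in gene deserts, in sequence between coding genes within 100 kb of a start site, and over coding gene bodies. Bars are the 3 large lists; the desert bars stand between 5.40 and 5.85, below every bar of the other compartments.

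Within deserts the density was lower at greater distances from the nearest coding start site in all 3 lists, given without a test. It was 9.11, 9.73 and 9.38 peaks per Mb at 100 to 200 kb, 5.03, 5.56 and 5.40 at 300 to 500 kb, and 1.16, 1.33 and 1.30 beyond 1000 kb. The merged regions lay at a median of 223 kb from the nearest start site (quartiles 145 and 400 kb), whereas the median desert base was 357 kb away. At over 500 kb there were 1023 regions (17.5%) and at over 1000 kb there were 220 (3.76%). Across the 100 kb limit itself, intergenic peaks at 90 to 100 kb numbered 350, 364 and 362 with a median fold enrichment of 5.29, 5.32 and 4.89, and those at 100 to 110 kb numbered 366, 386 and 366 with 5.09, 4.99 and 4.85.

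**Figure D2:**
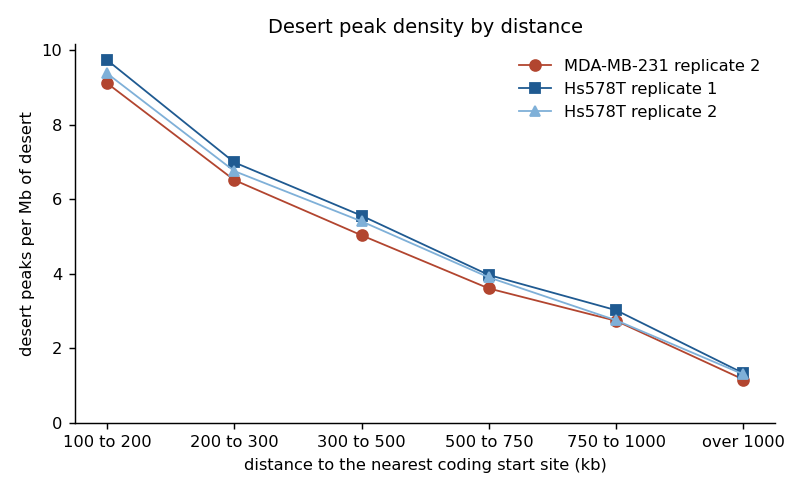
Desert peaks per Mb of desert (vertical axis, from 0) by distance to the nearest protein-coding start site in kb (horizontal axis, classes of unequal width). Each line is 1 list; all 3 are lower at each step than at the step before, from 9.11 to 9.73 at 100 to 200 kb to 1.16 to 1.33 beyond 1000 kb.

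The most remote region lay 4845 kb from a start site, on chromosome 22 at 10682596 to 10683585, with the olfactory receptor gene OR11H1 as its nearest coding gene. It was called in all 3 lists with fold enrichments of 6.99, 3.95 and 5.69, over 983, 937 and 272 of its 990 bp. How uniquely reads map there was not tested, nor was it for the other remote regions. The next was 2820 kb from AQP7B on chromosome 2, beside the lncRNA gene ENSG00000286698. A pair of neighbouring regions 2339 and 2345 kb from TENM3, a teneurin cell adhesion gene, was also called in all lists, the stronger with fold enrichments of 9.58, 11.6 and 9.25. The fifth, 2337 kb from ARAP2, appeared in Hs578T replicate 2 alone at a fold enrichment of 2.75.

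Desert regions were spread unevenly over chromosomes. Chromosome 12 had the most per Mb of desert, 9.35 regions, followed by chromosomes 6 with 8.65 and 8 with 8.58. The lowest densities were on chromosomes 19, 21 and 18, with 1.06, 1.33 and 1.95 regions per Mb. The value of chromosome 19 rests on 7 regions in 6.61 Mb of desert. All merged regions came to 19.9, 17.3 and 14.5 per Mb of known sequence on chromosomes 12, 6 and 8. On chromosomes 19, 21 and 18 they came to 31.4, 12.6 and 9.99 per Mb. Chromosome 13 is desert over 45.6% of its sequence and held 304 desert regions.

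Most desert regions were called in every list. All 3 lists called 4166 regions, 71.2% (69.98 to 72.30), against 74.8% of all merged regions and 69.7% (69.1 to 70.2) of other distal regions, that is, those outside deserts and over 2.5 kb from every coding start site. The intervals of the desert and other distal shares overlapped. Both Hs578T lists but not MDA-MB-231 replicate 2 called 412 regions, 7.04% (6.41 to 7.72) against a background of 5.51% of all merged regions and 6.86% of other distal ones. MDA-MB-231 replicate 2 alone called 281 regions, 4.80% (4.28 to 5.38) against a background of 3.79% and 4.33% of other distal ones. Such patterns followed strength closely: 98 of the 808 desert regions under percentile 10 of strength were called in all lists, and all 422 of those from percentile 90 up. Among other distal regions the corresponding counts were 515 of 4465 and 1874 of 1876. The calls of 1 list alone thus came mostly from weak regions, whose median strength percentile was 9.20.

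The median strength of desert peaks lay within 2.35 percentile points of that of other distal peaks. Strength was taken as the percentile of a peak's fold enrichment over local background within its own list, since fold enrichments are not on a common scale between lists. Median percentiles of desert peaks were 41.5, 44.3 and 45.5, against 41.6, 42.0 and 43.1 for other distal peaks. The difference, desert minus other, was -0.01, 2.24 and 2.35 percentile points (exact sign-flip permutation test, p = 0.5). Desert peaks were slightly narrower, with median widths of 1193, 1208 and 1186 bp against 1224, 1240 and 1209 bp, in 3 of 3 lists (p = 0.25, exact sign-flip permutation test on width percentiles). The top 10% of each list included 364, 475 and 495 desert peaks, or 7.53%, 9.08% and 9.79% of them, beside 7.70%, 8.22% and 8.80% of other distal peaks. The desert share was thus the lower one in MDA-MB-231 replicate 2 and the higher one in both Hs578T lists, and this was not tested.

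Desert peaks were among the strongest of each list. The STC2 region, at 173449581 to 173459852 on chromosome 5, had fold enrichments of 48.9, 61.1 and 51.4, which was rank 9 of all peaks in MDA-MB-231 replicate 2 and rank 1 in both Hs578T lists. Of the top 100 peaks of each list 13, 12 and 17 were desert peaks, beside the 11.1%, 11.3% and 11.3% of all peaks that lay in deserts. Next came a region 105 kb from ARF6, a small GTPase of membrane traffic, at 42.2, 55.8 and 39.7, and a region 115 kb from SPRY4, an inhibitor of receptor tyrosine kinase signalling, at 38.7, 51.5 and 42.1. On chromosome 20 a region near BCAS1 (39.7, 43.3 and 40.1) and a region near the zinc finger gene ZNF217 (38.5, 38.6 and 37.1) were also in the top 10.

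A pair of adjacent regions about 500 kb from JARID2, a component of Polycomb repressive complex 2, ranked among them as well. The nearer one had fold enrichments of 41.5, 39.9 and 33.9 and the farther one 40.7, 37.5 and 31.2. The other members of the top 10 were regions 502 kb from METTL15, a mitochondrial ribosomal RNA methyltransferase gene (34.5, 45.8 and 39.997), 152 kb from KIF18A, a mitotic kinesin gene (37.1, 38.5 and 35.1), and 207 kb from HS3ST3A1, a heparan sulfate sulfotransferase gene (34.8, 39.8 and 33.3). Of these 10, which had to be called in all lists to be ranked, 8 had a nearest coding gene with a marked promoter, and 9 held at least 1 AP-1 site.

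Desert regions gathered in clusters. When regions within 12500 bp of each other were stitched, 5855 regions formed 3823 units, of which 2660 were single regions, 720 were pairs, 349 had 3 or 4 members and 94 had 5 or more. Of the desert regions 54.6% (53.3 to 55.8) had a neighbour in this range, against 57.7% (57.1 to 58.3) of other distal regions, and within lists the shares were 52.3%, 52.0% and 52.7% against 53.4%, 55.8% and 54.8% (p = 0.25, exact sign-flip permutation test). The median gap to the next desert region was 27.9 kb, against 22.4 kb among other distal regions. Super-enhancers are ranked on read signal, which was not used here, so the term is not applied to these clusters.

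The largest cluster by length covered with peaks lay on chromosome 7 at 130838162 to 130963531, 104 kb from KLF14, a Krueppel-like transcription factor gene. It held 11 regions, and peaks covered 74.2, 72.9 and 66.7 kb of its 125 kb in the 3 lists. Its core was the widest of all desert regions, 52925 bp, over the start of LINC-PINT and over MIR29A and MIR29B1, with fold enrichments of 18.1, 16.9 and 14.1. The promoter of KLF14 itself carried no peak in any list.

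The second cluster lay on the X chromosome, 533 kb from DIPK2B, and its 12 regions were covered over 59.1, 68.7 and 68.7 kb. Most of it was a region of 45438 bp over MIR222HG, the host gene of MIR221 and MIR222, with fold enrichments of 12.7, 13.6 and 10.2. The nearest coding promoter was again unmarked. The third, 105 kb downstream of MYC within PVT1, had 16 regions, the most of any cluster, and 55.8, 54.5 and 49.6 kb were covered.

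Of the remaining top 10, the cluster 693 kb from CHRM3, a muscarinic acetylcholine receptor gene, had 44.9, 49.5 and 47.8 kb covered, no lncRNA gene annotated in it and an unmarked nearest coding promoter. The cluster near POU3F4, a POU homeodomain transcription factor gene, was 758 kb away from it and covered 27.6, 35.1 and 33.8 kb, also without a lncRNA gene. Clusters near TNFSF18, encoding a ligand of the TNF family (39.3, 42.7 and 42.5 kb), DUSP4, encoding a MAP kinase phosphatase (38.2, 39.9 and 38.6 kb), and HMGA2, encoding a chromatin architectural protein (35.8, 38.4 and 41.5 kb), followed. Those near ERRFI1, an inhibitor of EGFR (32.4, 33.3 and 32.6 kb), and TOMM20, a mitochondrial import receptor gene (32.2, 33.2 and 32.1 kb), completed the list, and these 5 genes had marked promoters in all lists. Across the 10 clusters MDA-MB-231 replicate 2 covered less than both Hs578T lists at 7 and more than both at 2, those near KLF14 and MYC.

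**Figure D3:**
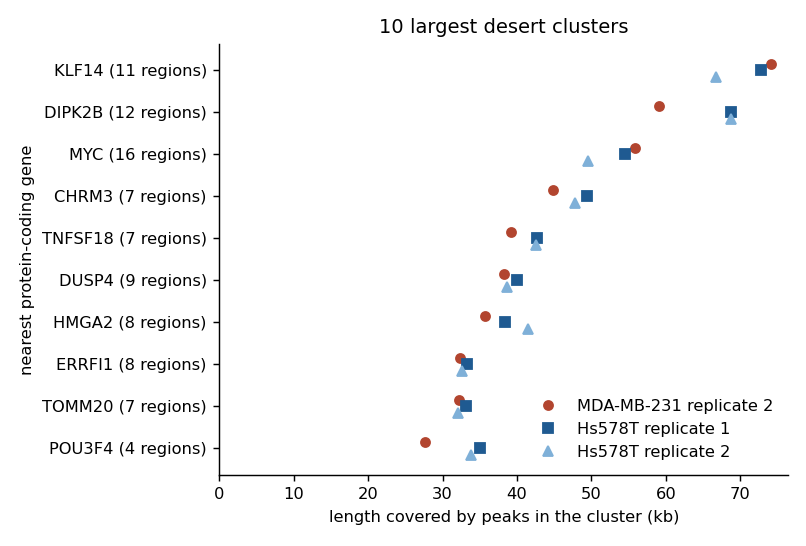
Length covered by H3K27ac peaks in kb (horizontal axis, from 0) in each of the 10 largest stitched desert clusters, named by the nearest protein-coding gene with the number of merged regions. Points are the 3 lists; the KLF14 cluster leads with 66.7 to 74.2 kb, and the lists lie farthest apart at the DIPK2B cluster.

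Few deserts held most of these regions. Of 1828 deserts of at least 1 kb, 981 (53.7%) had any region, and the 158 richest (8.64%) held 50% of all regions. Deserts differ in length: the median was 0.337 Mb for those with a region and 0.0915 Mb for those without. Whether the regions are more concentrated than desert length alone would give was not tested. The desert between MYC and GSDMC had the most, 68 regions in 1.81 Mb, with 138.6, 129.9 and 125.0 kb covered. Then came the deserts between CITED2 and NMBR with 50 regions in 2.501 Mb, between DIPK2B and KRBOX4 with 41 in 1.05 Mb, and between ZEB2 and ACVR2A, between GATA3 and CELF2 and between RASGRP1 and THBS1 with 39 each. Among the 10 deserts with most regions, density was highest between DUSP4 and SARAF, at 67.8 regions per Mb. At the other end, 50 of 259 deserts with over 1 Mb of known sequence had no region, the longest being 6.05 Mb between ZNF716 and ZNF722 and 5.23 Mb between KCNJ18 and WSB1, both of which span a centromere.

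The desert regions had 1374 different nearest protein-coding genes. The nearest gene is a neighbour and not a shown target. MYC, the growth-promoting transcription factor, was nearest to 54 regions, with 46, 40 and 47 peaks covering 126.5, 120.8 and 116.7 kb. CITED2, which encodes a co-regulator that binds CBP and p300, was nearest to 37 regions, SOX9, a transcription factor gene of cartilage and of many epithelia, to 33, and KLF6, a Krueppel-like factor gene, to 31. THBS1, encoding the matrix protein thrombospondin 1, was nearest to 30 regions, or 73.5 per Mb of the desert nearest to it. METTL15 had 25 regions, MARCKS, a substrate gene of protein kinase C, 22, and HAS2, a hyaluronan synthase gene, 22. The promoters of these 8 genes were marked in all 3 lists.

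GATA3, the luminal breast transcription factor, was nearest to 27 regions, called as 24, 26 and 25 peaks that covered 32.1, 38.1 and 33.9 kb. Its own promoter had no peak in any list, and 22 of its 27 regions were called in all 3 lists.

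For all desert peaks together, the nearest coding promoter was marked for 66.5% (65.2 to 67.8), 66.3% (65.0 to 67.6) and 65.4% (64.1 to 66.7) of desert peaks, a promoter being marked if a peak in the same list reached to within 1 kb of the canonical start site. A peak at another start site of the gene did not count, here and wherever a promoter is called marked or unmarked. For other distal peaks the shares were 74.3%, 74.5% and 72.7%, higher in 3 of 3 lists; desert minus other was -7.84, -8.18 and -7.32 points (p = 0.25, exact sign-flip permutation test). Other distal peaks include those inside gene bodies. Against the intergenic ones alone, with shares of 71.0%, 71.5% and 69.6%, the difference was smaller, -4.52, -5.17 and -4.16 points (p = 0.25, exact sign-flip permutation test). Of all coding genes 58.1%, 58.2% and 56.4% had a marked promoter. Desert sequence nearest to genes marked in all lists held 9.22 regions per Mb and that nearest to genes marked in none held 4.18. The regions of the former lay at a median of 215 kb from a coding start site and those of the latter at 248 kb. These 2 densities were not matched for distance, with which density also differed. The nearest marked promoter was at a median of 313, 313 and 319 kb from a desert peak.

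Fixed gene lists describe these neighbours. Of all 19970 coding genes, 1374 (6.88%) were nearest to at least 1 desert region, and 6.53 regions were found per Mb of the desert nearest to a coding gene. Of all coding genes, 14.997% were the nearest coding gene of some desert sequence, with or without a region. The share was 83.1% for developmental and lineage transcription factors, 55.1% for secreted factors and 52.7% for mesenchymal genes. Counted only among genes with desert sequence nearest to them, 45.9% of coding genes were nearest to a region. That percentage was 59.5% for the developmental list, 63.2% for secreted factors, 69.0% for mesenchymal genes and 56.9% for neuronal adhesion genes. Densities of the lists were not matched for distance to a start site. Of 89 developmental and lineage transcription factors, 44 were nearest to a region, with 12.03 regions per Mb. Besides MYC, SOX9 and KLF6, members with many regions were ZEB2, a driver of epithelial-mesenchymal transition, with 21, NR2F1 and KLF4 with 19 each, TFAP2A and ETS1 with 18 each, and NR2F2 and TBX3 with 14 each. HMGA2 had 11 regions, FOXQ1 and TBX18 had 10, SIX2 and KLF5 had 9, ID4 had 8, and NR4A2, SOX2 and SOX4 had 7. SIM1, ZFHX4 and KLF12 had 5. The promoters of 24 of the 44 were marked in all lists. Those of TFAP2A, ETS1, TBX3, TBX18, ID4 and SIM1, among others, were marked in none. ID4, an inhibitor of basic helix-loop-helix factors, had more peaks in the MDA-MB-231 list, 8 against 4 and 3.

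Of 69 growth factors, cytokines and their inhibitors, 24 were nearest to a region, with 14.7 regions per Mb, and 16 of these had marked promoters. TGFB2, a transforming growth factor, had 15 regions covered over 33.2, 39.0 and 39.4 kb, VEGFC, a lymphangiogenic factor, had 14 over 24.6, 26.3 and 26.5 kb, and FST and BMP4, of the activin and BMP pathways, had 9 each. PDGFC, SFRP1 and BMP7 had 8 each, ANGPT1 had 7, SEMA3C and HGF had 6, and BTC, NRG1 and DKK1 had 5. HGF, SFRP1 and BMP7 had no promoter peak in any list.

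Of 55 mesenchymal adhesion and matrix genes, 20 were nearest to a region, with 10.4 regions per Mb, and 14 had marked promoters. Besides THBS1 and HAS2, PCDH7 and CDH2 had 12 regions, FN1, encoding fibronectin, and CDH11 had 11, NRP1 had 8, TNC had 7, COL4A1 had 6 and COL8A1 had 5. CDH11, a mesenchymal cadherin, showed a marked promoter in both Hs578T lists and not in MDA-MB-231 replicate 2, and its desert peaks numbered 6, 11 and 9. For CDH2, encoding N-cadherin, the promoter was unmarked in all lists while 11 of its 12 desert regions were called in all of them.

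Neuronal and synaptic adhesion genes are the classic neighbours of very large deserts. Of 54 such genes, 51 bordered a desert and 29 were nearest to a region, but over 57.4 Mb of desert the density was 2.66 regions per Mb, the lowest of the lists. TENM3 led with 21 regions, FLRT2 had 14, SLITRK6 had 13, ROBO1 had 11, PCDH10 and PCDH18 had 10, SLITRK1 and SLITRK5 had 9, PCDH9 had 8, CDH10 had 7, and CSMD3 and NLGN4X had 5. Marked promoters were found for 7 of the 29.

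The list of 31 AP-1 and NF-kB pathway genes also held NAMPT, a gene the study followed, which encodes an enzyme of NAD synthesis and is no member of either pathway. Of the 31, 4 were nearest to a region, JUN, NAMPT, and, with 1 region each, NFKBIZ and TNFAIP3, which encode regulators of NF-kB. All 4 promoters were marked, and the density was 35.0 regions per Mb, over 0.371 Mb of desert. JUN, encoding the core AP-1 subunit, had 6 regions at 116 to 245 kb, of which 5 were called in all lists. The nearest one, over the start of LINC02777, had fold enrichments of 21.45, 10.1 and 9.25. NAMPT, encoding the rate-limiting enzyme of NAD salvage, had 5 regions at 132 to 174 kb, called as 5, 3 and 2 peaks. The strongest, 138 kb from NAMPT at 106424202 to 106426410 on chromosome 7, had fold enrichments of 13.5, 9.28 and 7.89, and the other 4 had a mean percentile of 18.1 or less. The paper places the super-enhancer it linked to NAMPT closer to the promoter than the 100 kb limit. That super-enhancer is thus not among these 5 regions. Of 31 luminal and epithelial genes, 5 were nearest to a region and none had a promoter marked in all lists, and of 18 immune, endothelial and blood markers 2 were, again none with a marked promoter. Density was 14.6 and 9.57 regions per Mb for these 2 lists, over 2.26 and 1.15 Mb of desert, also above the 6.53 of all coding genes. GATA3 was the luminal member with 5 or more regions, and PTPRC, the leukocyte gene, the immune one, with 9 regions called as 6, 8 and 9 peaks.

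Deserts without coding genes still hold many lncRNA genes. Of the desert regions 2586, or 44.2% (42.9 to 45.4), overlapped a lncRNA gene body, whereas lncRNA bodies made up 29.7% of desert bases. Counted in bases, 44.2% of the sequence in desert regions was lncRNA gene body. A lncRNA start site lay within 1 kb of 502 regions, 8.57% (7.88 to 9.32). Since a wide region can reach such a window by its edge, the share of bases is the fairer measure: 6.86% of the sequence in desert regions, and 1.40% of all desert bases, lay within 1 kb of a lncRNA start. Among other distal regions 18.1% overlapped a lncRNA gene and 6.40% lay at a lncRNA start site. Desert peaks at lncRNA start sites were the stronger ones, with median percentiles of 57.1, 61.1 and 61.2, against 41.3, 42.3 and 43.6 for those inside a lncRNA gene away from its start and 39.3, 43.3 and 44.5 for those in none. They were also wider, 1626, 1641 and 1608 bp in the median, and 81.5% of regions at a start site (77.8 to 84.6) were called in all lists, against 70.2% (68.9 to 71.4) of the others. H3K27ac alone does not tell a lncRNA promoter from an enhancer. The strength, width and calling of these classes were compared as a description, with no test. The classes were not matched for width, and a wide peak reaches a start window more easily.

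**Figure D4:**
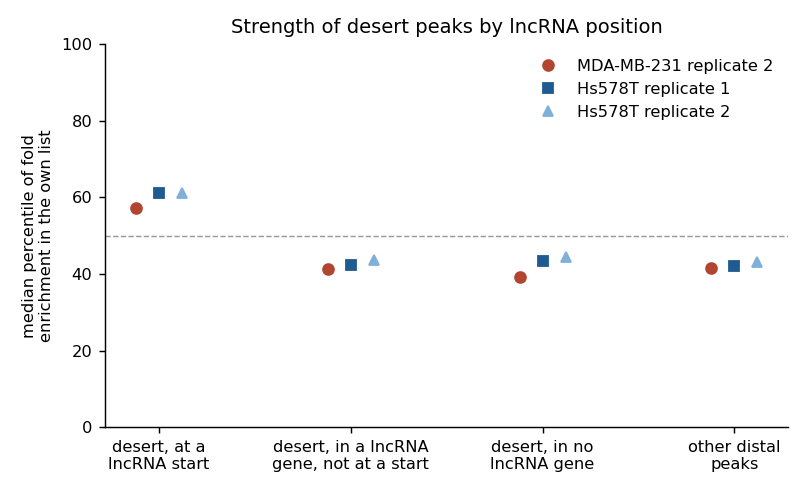
Median percentile of fold enrichment within the own list (vertical axis, 0 to 100, dashed line at 50) for desert peaks at a lncRNA start site, in a lncRNA gene away from its start and in no lncRNA gene, and for other distal peaks. Points are the 3 lists; the peaks at a lncRNA start lie at 57.1 to 61.2, above the dashed line, and the other classes lie below it.

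The lncRNA gene with most desert regions was ENSG00000259345 beside THBS1, with 36 regions covered over 74.6, 82.8 and 77.1 kb. MIR3681HG near TRIB2 and PVT1 beside MYC had 30 each, and PVT1 was covered over 102.8, 97.0 and 89.9 kb. ENSG00000258077, between KRR1 and PHLDA1, had 25 regions, and LINC00511 near SOX9 had 21. LINC00607 beside FN1, CCDC26 beyond PVT1, ENSG00000282863 near ZMIZ1 and DLEU1 had 18 each, and LINC02240 near ZNF608 had 17. Of these, CCDC26 had the smallest share of regions called in all lists, 8 of 18, and MIR3681HG had 26 of 30. PVT1 and LINC00511 each had 9 regions at a start site of their own, whereas CCDC26 and LINC02240 had none there.

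The strongest regions at lncRNA start sites were led by the ARF6 region at LINC01588 and the BCAS1 region at ENSG00000225563, described above. Next were ENSG00000204876, 147 kb from SHH, with fold enrichments of 35.9, 33.1 and 28.4, and LINC02952, 145 kb from MYEOV, with 36.1, 32.5 and 26.5. ENSG00000261334 near NTMT1 (33.1, 30.0 and 31.9), ENSG00000289851 near ADGB (32.8, 35.0 and 26.6) and LINC03061 near MYO16 (32.5, 33.4 and 26.7) followed. The last 3 were ENSG00000287564 near ZNF438 (30.9, 34.8 and 26.9), ENSG00000289994 near PITRM1 (26.5, 34.3 and 29.5) and LINC02098 near ETS1 (24.7, 39.8 and 34.3). The promoter of SHH, a secreted morphogen, was unmarked, as were those of ADGB, MYO16, BCAS1 and ETS1.

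AP-1 sites such as those in the windows printed above were common. An AP-1 site was found in 52.9% (51.5 to 54.3), 52.8% (51.4 to 54.1) and 52.0% (50.6 to 53.3) of desert peaks. The comparison windows had the length of their peak, lay 10 kb from it and were free of peaks in every list; in these the shares were 19.0%, 19.9% and 19.96%. The difference of 33.9, 32.9 and 32.0 points went the same way in 3 of 3 lists (p = 0.25, exact sign-flip permutation test). Desert peaks had a higher GC content than these windows, 41.3%, 41.4% and 41.1% against 38.9% in each list in the median, and among the 1178, 1334 and 1285 pairs within 2 points of GC the shares were 58.5%, 56.1% and 54.9% against 25.6%, 25.1% and 24.0%.

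Other distal peaks held an AP-1 site in 51.6%, 50.7% and 49.9% of cases, below the desert peaks by 1.31, 2.06 and 2.02 points (p = 0.25, exact sign-flip permutation test). Per kb of sequence, desert peaks held 0.503, 0.489 and 0.491 AP-1 sites and other distal peaks 0.467, 0.450 and 0.455. The TRIML1 region with its tandem array alone held 77 of the 4953 sites in desert regions, 1.55%. Densities were not recomputed without it. The share of desert regions with a site was higher in stronger regions, from 36.8% (34.8 to 38.9) below percentile 25 to 76.9% (74.3 to 79.4) above percentile 75, but the median width also went from 709 to 3256 bp, and sites per kb went from 0.627 to 0.404. Regions at lncRNA start sites held 0.385 sites per kb, against 0.491 elsewhere. The share of regions with a site went the other way, 57.4% (53.0 to 61.6) against 52.4% (51.1 to 53.8). The median width was 1723 bp at lncRNA starts and 1202 bp elsewhere, and the 2 classes were not matched for width or strength.

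**Figure D5:**
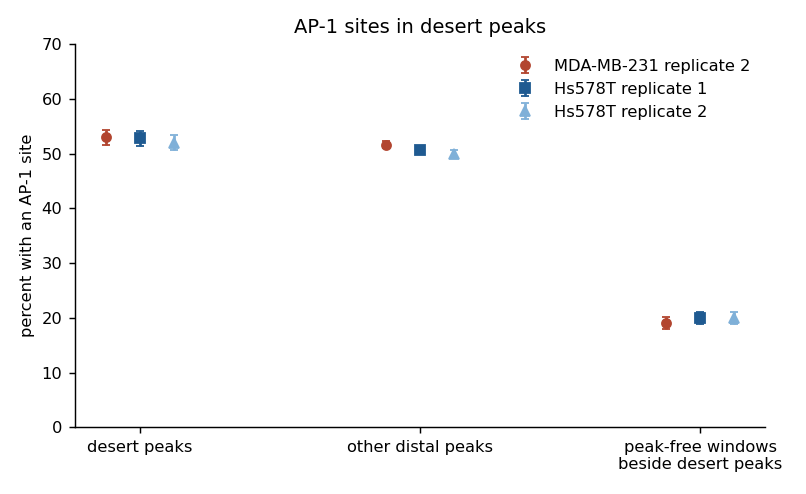
Percentage of desert peaks, of other distal peaks and of peak-free windows beside desert peaks that hold an AP-1 site (vertical axis, from 0). Points are the 3 lists with 95% Wilson intervals; both peak classes lie between 49.9 and 52.9%, and the windows between 19.0 and 19.96%.

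Other motifs differed less from the windows. The TEAD motif GGAATGT, bound by the partners of YAP, was in 27.5%, 28.1% and 27.9% of desert peaks and in 20.7%, 20.3% and 19.4% of windows, searched on both strands. The RUNX motif TGTGGTT was in 34.4%, 33.9% and 33.6% against 25.6%, 25.7% and 25.8%. In pairs of like GC content the TEAD shares were 30.5%, 31.6% and 32.4% against 25.6%, 24.1% and 24.7%. The RUNX shares in such pairs were 38.2%, 37.3% and 38.7% against 30.9%, 30.2% and 30.0%. The NF-kB motif was in 15.001%, 15.2% and 14.5% against 10.2%, 10.6% and 10.3%, but in pairs of like GC content the shares were 13.4%, 14.8% and 13.9% against 13.4%, 13.1% and 12.7%. Other distal peaks held the NF-kB motif in 17.5%, 17.5% and 16.8% of cases, against 12.8%, 12.8% and 12.4% of the windows beside them. They held the RUNX motif in 30.9%, 30.8% and 30.3%, against 23.4%, 23.7% and 23.1% of those windows. For the TEAD motif the shares were 25.4%, 25.7% and 25.5% against 18.3%, 18.7% and 18.1%. The windows beside other distal peaks thus differed from those beside desert peaks in the same direction as the peaks did, and no test between the classes was run for these motifs. A motif match is a sequence of letters, and binding was not measured.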

How the data were processed

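H3K27ac ChIP-seq peak lists of 4 libraries were used, grouped by cell line and replicate as in the sample titles. The authors trimmed reads with Trimmomatic, aligned them to hg38 with Bowtie2, called peaks per library with MACS2 after input subtraction and removed blacklisted regions with bedtools; versions and MACS2 settings are not given in the sources used here. Each deposited peak carries a score, a fold enrichment (a ratio to the library's own local background), and −log10 p-values and −log10 q-values, the largest q being 0.0994. Since these are called peaks without reads, weak regions can pass the threshold in 1 list and miss it in another.

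Peaks on chromosomes 1 to 22 and X were placed against GENCODE release 44 (start sites of all protein-coding transcripts, distance from the nearest peak edge). Sequence names and lengths matched, and 0 peaks ran past a chromosome end. Unknown bases were left out of desert lengths, blacklisted bases were not. Python 3.11.15, NumPy 2.4.6 and SciPy 1.17.1 were used, and interval and motif code was tested on simulated data. Strength ranks come from fold enrichment. Differences between desert and other distal peaks were tested with an exact two-sided sign-flip permutation test over the 3 lists. The 95% Wilson intervals reflect counting error alone, as peaks close together depend on each other.

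The regions, gene lists and naming rules were chosen with earlier results of these data known, so none is independent support. Named were the 10 largest clusters, the 10 strongest regions called in all lists, the 10 nearest coding genes with most regions, the 10 lncRNA genes overlapping most regions, the 10 lncRNA starts at the strongest regions, the 5 farthest regions, and members of the fixed lists nearest to 5 or more regions. A few results that these rules name are not reported here. The TEAD and RUNX motifs, the miRNA loci, the TRIML1 array, single NAMPT and JUN regions, and the intergenic and base-wise comparisons were added after values were seen. Alternatives covered the distance limit, start sites, strength filter, merging, stitching, windows and left-out lists.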

Additional observations from a re-analysis of the deposited data

Results flagged for a closer look

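The peak list labelled MDA-MB-231 replicate 1, which entered no comparison, held 32 desert peaks among its 209 peaks, 15.3% (95% Wilson interval 11.1 to 20.8). It drew attention because it is a signal outside the lists that define the regions. These peaks had a median width of 282 bp, a median fold enrichment of 3.92 and a maximum of 10.2, and 5 of the 32 overlapped a desert region of the large lists. No control library was analysed here to set a background for them, and their source was not tested.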

How the results depend on the processing

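No paired analysis was possible because the lines share only replicate number 2 among the large lists; this concerns pairing by replicate number, and the comparisons of desert with other peaks were made within each list. In all, 110 values were recomputed for 12 results, and 55 moved by more than the spread between the Hs578T lists, the Wilson interval or, for counts, 1.5 times. With a limit of 50 kb there were 8756 regions; 16.9% of peaks were in deserts, at 6.85 per Mb, 72.4% were called in all lists, the median strength percentile was 44.8, 56.4% were clustered in 1760 clusters, the median distance was 145 kb, 67.6% had a marked nearest promoter, 41.4% overlapped a lncRNA gene and 9.35% lay at a lncRNA start. With 250 kb these values were 2590 regions, 4.89%, 3.81 per Mb, 69.0%, 40.6, 47.8%, 472 clusters, 437 kb, 62.5% and, at lncRNA starts, 6.14%. With canonical starts alone, 13.2% of peaks, 6.12 per Mb, 227 kb and 42.7% overlapping a lncRNA gene were found. The strength filter kept the top 50% of peaks of each list, ranked by score and then by p-value, not by fold enrichment. It gave 2472 regions, 9.81% of peaks, 2.46 per Mb, 75.4% called in all lists, a percentile of 47.8 and 39.3% clustered. It also gave 402 clusters, 208 kb, 57.6% marked promoters, 46.5% in lncRNA genes, 12.2% at lncRNA starts and 67.5% with AP-1. Merging before the rule moved the distance to 223.2 kb, and merging within 1 kb the clustered share to 52.3%. Requiring 50% of bases covered left 59.8% called in all lists. Stitching within 5 and 25 kb gave 33.7% and 69.1% clustered. Windows of 2.5 kb gave 67.7% marked promoters and 11.7% at lncRNA starts, and the central 500 bp gave 32.8% with AP-1. Leaving out each list in turn gave 11.2 to 11.3% of peaks, 77.7 to 82.0% called in all lists used, a percentile of 42.9 to 44.9, 53.3 to 54.2% clustered and a distance of 221.6 to 222.6 kb. With MDA-MB-231 replicate 1 added, 0.136% of regions were called in all 4 lists. For the limit, filter, window and list settings the construction changes which peaks are counted; other causes were not tested. Unknown depth limits all counts of weak peaks.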
